A study of Mus musculus with 6 samples.

Results

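Potassium channel genes were taken as every row of the deposited expression table whose symbol is Kcn followed by lower-case letters and a number. This rule gave 92 of 23361 genes, in 20 subfamilies. Of them, 66 in 18 subfamilies had a mean of at least 1 FPKM (sequenced fragments scaled to transcript length and to the mapped total of the library) over the 6 libraries and were tested, among 12533 tested genes in all. The rule takes pore-forming subunits and also the auxiliary subunits named Kcnab, Kcnip, Kcne and Kcnmb, and it leaves out 3 other Kcn symbols (Kcne1l, Kcnq1ot1 and Kcnrg).

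RNA was sequenced from whole hippocampus of 3 Tet1Δe4-/- mice, which carry a homozygous deletion of exon 4 of the DNA dioxygenase gene Tet1 (Tet1-deficient below), and of 3 Tet1+/+ mice (wild-type below). Animals of both genotypes had received electroconvulsive shock, a current of 18 mA passed between the ears at 100 Hz in 0.2 ms pulses for 1.15 s that evokes a tonic-clonic seizure, and tissue was taken 1.5 to 2 hours afterwards. Libraries of unshocked mice were not analysed here, so every value below describes shocked hippocampus, and a response to the shock itself was not measured. The labels used here name no promoter or Cre line and give no age. The title of wild-type replicate 1 carries an f where those of the other libraries carry an m, and the labels do not explain the letters. Replicate numbers only name the libraries and tie none to a library of the other genotype. The p-values below measure the spread between these 3 libraries per genotype. In whole tissue, fewer cells of a type and less RNA per cell cannot be told apart.

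Potassium channels let potassium ions leave or enter the cell down their electrochemical gradient and so set the resting potential, the shape of the action potential and the rate of firing. In the hippocampus, voltage-gated members repolarise axons and dendrites, calcium-activated members shape the afterpotential, inward rectifiers answer to G proteins, to ATP or to potassium itself, and leak channels of the tandem-pore group hold the resting potential. Astrocytes use their own inward rectifiers to take up potassium released by firing neurons.

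Tet1 acts on methylated cytosine in CpG dinucleotides, so the sequence just upstream of a few members is shown with its CpG sites in capitals. Methylation itself was not measured in these libraries. The 250 bases before the annotated start, from RefSeq on GRCm38.p6 and written 5′ to 3′ on the gene's strand, are given for the 4 members whose genotypes did not overlap (Kcna6, Kcnh5, Kcnk4 and Kcng4), and for Kcnc1 and Kcnc2, paralogs that lay on opposite sides in 2 of the libraries. For Kcnc2, which has 4 annotated starts, the window that ends at the start of its GENCODE gene is shown. Kcna6 lies at chr6:126740675-126740924 on the minus strand and Kcnh5 at chr12:75177333-75177582 on the minus strand. Kcnk4 lies at chr19:6934516-6934765 on the minus strand and Kcng4 at chr8:119635681-119635930 on the minus strand. Kcnc1 lies at chr7:46396218-46396467 and Kcnc2 at chr10:112270871-112271120, both on the plus strand.
Kcna6: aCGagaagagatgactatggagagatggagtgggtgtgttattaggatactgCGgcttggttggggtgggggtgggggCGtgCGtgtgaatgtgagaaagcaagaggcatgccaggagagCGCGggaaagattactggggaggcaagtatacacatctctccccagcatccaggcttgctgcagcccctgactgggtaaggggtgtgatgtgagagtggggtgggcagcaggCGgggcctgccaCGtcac
Kcnh5: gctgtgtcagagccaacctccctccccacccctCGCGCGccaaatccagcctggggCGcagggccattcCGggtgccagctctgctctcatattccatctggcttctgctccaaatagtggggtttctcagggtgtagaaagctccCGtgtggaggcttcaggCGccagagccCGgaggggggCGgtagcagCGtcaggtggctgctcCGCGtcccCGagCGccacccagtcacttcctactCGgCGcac
Kcnk4: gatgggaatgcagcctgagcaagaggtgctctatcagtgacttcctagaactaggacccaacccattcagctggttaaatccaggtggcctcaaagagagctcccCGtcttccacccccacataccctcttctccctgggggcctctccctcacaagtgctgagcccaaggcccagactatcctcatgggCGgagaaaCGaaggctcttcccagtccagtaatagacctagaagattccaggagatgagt
Kcng4: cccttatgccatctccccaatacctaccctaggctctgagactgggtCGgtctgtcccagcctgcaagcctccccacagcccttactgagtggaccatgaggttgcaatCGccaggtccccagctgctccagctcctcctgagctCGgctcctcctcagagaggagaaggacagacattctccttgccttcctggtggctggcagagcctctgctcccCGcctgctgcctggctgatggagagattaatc
Kcnc1: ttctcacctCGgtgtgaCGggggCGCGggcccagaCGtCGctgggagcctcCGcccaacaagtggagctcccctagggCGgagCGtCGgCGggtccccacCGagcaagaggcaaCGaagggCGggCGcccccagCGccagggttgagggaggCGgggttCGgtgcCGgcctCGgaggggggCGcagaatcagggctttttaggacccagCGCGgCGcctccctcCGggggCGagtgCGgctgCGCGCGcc
Kcnc2: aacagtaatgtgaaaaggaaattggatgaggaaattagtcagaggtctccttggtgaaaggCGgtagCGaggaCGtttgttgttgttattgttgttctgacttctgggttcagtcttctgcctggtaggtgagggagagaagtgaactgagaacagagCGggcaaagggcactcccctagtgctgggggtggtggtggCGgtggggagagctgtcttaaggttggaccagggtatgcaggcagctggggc

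The windows range widely in CpG content. Kcnc1 had 30 CpG sites and a GC content of 74.4%, whereas the Kcnc2 window shown had 5 CpG sites and a GC content of 52.8%, and its other 3 windows had 2, 5 and 4 CpG sites. Among the members whose genotypes did not overlap, Kcnh5 had 16 CpG sites, Kcna6 had 8, Kcng4 had 4 and Kcnk4 had 3. None of these 4 windows met the definition of CpG-rich used here, a GC content of at least 50% with an observed to expected CpG ratio of at least 0.6, although Kcnh5 missed the ratio only in the digits after 0.60. A RefSeq promoter was matched for 67 of the 92 members. Where a gene has several annotated starts, the window with the most CpG sites stands for it in the counts of CpG sites that follow. Of the 46 tested members with one, 21 (45.7%) were CpG-rich and the median was 14 CpG sites, beside 69.3% and a median of 18 CpG sites among all 9306 tested genes with a promoter. Of the 21 matched members under the expression filter, 5 (23.8%) were CpG-rich. The cAMP response element TGACGTCA, which reads the same on both strands, was in no window of the 67 members, beside 2.26% of the 16344 matched genes of the table and 3.15% of the tested ones. That says only that these letters are not in these windows.

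Before the channels are compared, the libraries need a description. Tet1-deficient replicate 1 and wild-type replicate 1 stood apart from the other 4 libraries on the first principal component, which held 53.3% of the variance. Some results below, not all, are also given without 1 or both of them. Tet1 measured 0.740, 0.685 and 0.638 FPKM in Tet1-deficient libraries and 0.977, 0.718 and 0.897 FPKM in wild-type libraries. The groups overlap (log2 difference −0.14, limma adjusted p = 1.00 in the fit without a filter on level), and a value for the whole gene does not check the loss of 1 exon. Library totals were 388120 to 389416 FPKM in Tet1-deficient and 371014 to 390042 FPKM in wild-type libraries, and the potassium channel genes took 0.359 to 0.379% of it in Tet1-deficient and 0.352 to 0.392% in wild-type libraries. Markers of hippocampal fields were present: all 11 dentate granule cell markers and all 9 CA1 markers passed the expression filter, and so did 7 of 9 CA3 markers. Summed CA1 markers were 263 to 291 FPKM in Tet1-deficient and 294 to 326 FPKM in wild-type libraries. The CA1 list is not of neurons alone, because it holds Dcn, which is also on the list of meningeal fibroblast markers. Dcn measured 33.0 FPKM in wild-type replicate 1 and 19.25 to 22.4 FPKM elsewhere. The gap between 291 and 294 FPKM depends on it. Summed meningeal markers were 55.5, 66.6 and 42.8 FPKM in Tet1-deficient and 118, 43.6 and 118 FPKM in wild-type replicates 1 to 3. Summed markers of GABAergic interneurons were 687 to 918 FPKM in Tet1-deficient and 770 to 1020 FPKM in wild-type libraries. Of these 14 markers, 13 had a lower mean without Tet1 on the log2(FPKM + 1) scale. Lhx6 was among the 13 although its mean in FPKM was higher, 6.52 in Tet1-deficient against 6.42 in wild-type libraries. No marker of the CA1, interneuron or meningeal lists was called, and the part of cell content in the channel values was not tested.

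The channel genes spanned a wide range of expression. A mean of at least 50 FPKM was reached by 8 members, 27 lay between 10 and 50 FPKM and 31 between 1 and 10 FPKM. Below the filter, 13 lay between 0.1 and 1 FPKM and 13 under 0.1 FPKM, of which Kcnmb3 was listed at 0 in every library. Auxiliary subunits were among the most abundant: Kcnab2, a cytoplasmic beta subunit of voltage-gated channels, had the highest mean of all members at 233 FPKM. Kcnip2 (71.6 FPKM), Kcnk1 (65.3 FPKM) and Kcnj3 (64.5 FPKM) were other abundant members, each of a different subfamily. FPKM is scaled to transcript length, which lets these levels be set beside each other.

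**Figure D1:**
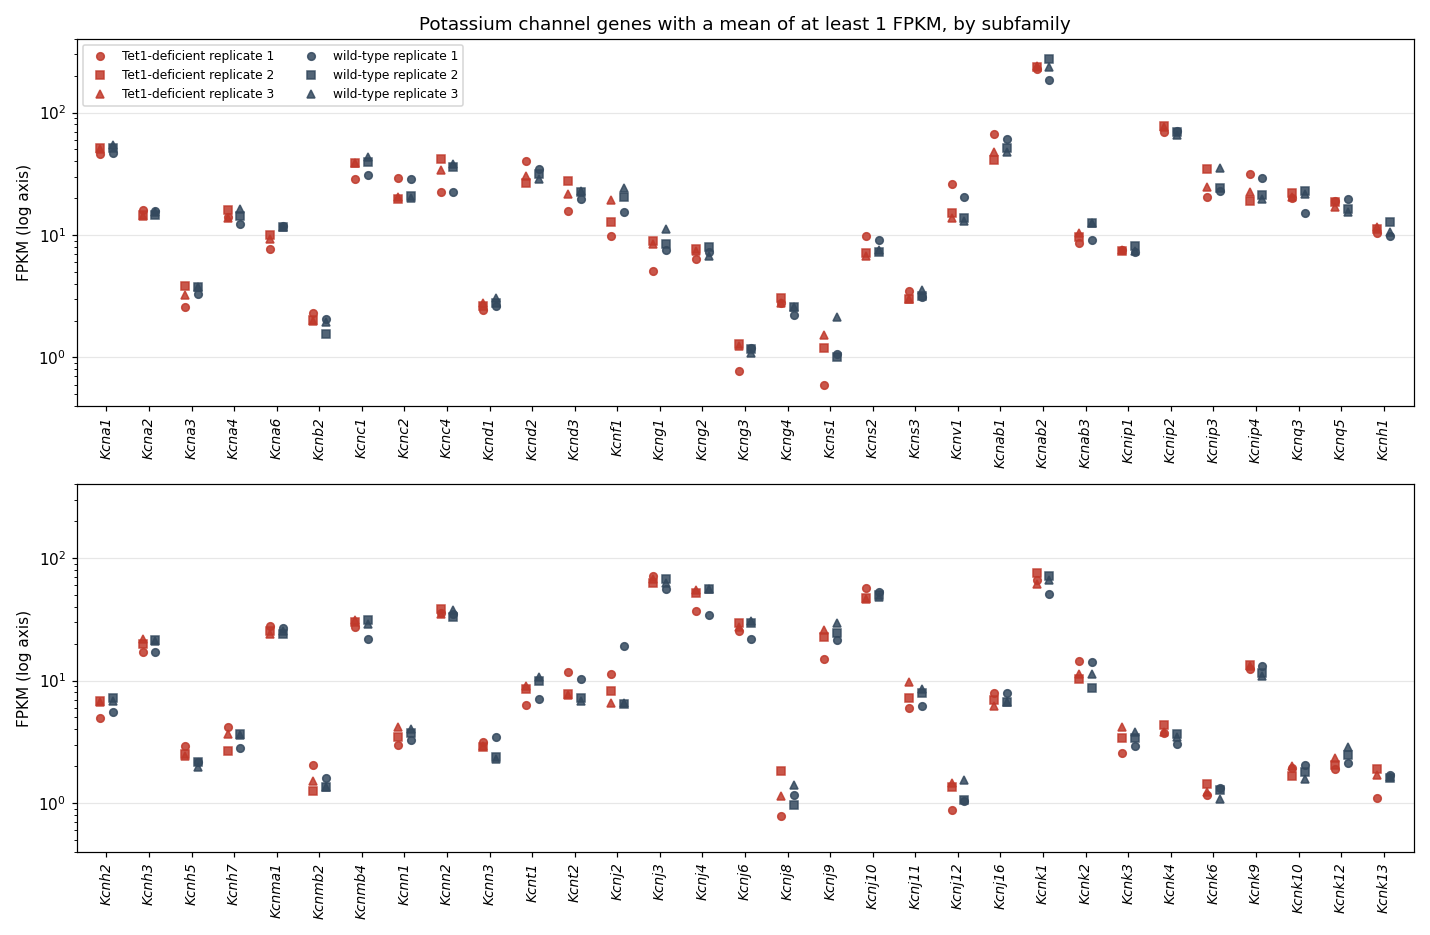
Level of 62 of the 66 tested potassium channel genes in FPKM (log axis), by subfamily, with Tet1-deficient libraries in red to the left of wild-type libraries in blue and a marker shape for each replicate. Levels run from about 1 FPKM to the 233 FPKM mean of Kcnab2, and for most genes the red and blue points share the same range.

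No potassium channel gene was called different between the genotypes. With limma on log2(FPKM + 1) and Benjamini-Hochberg adjustment over all 12533 genes, 0 of 66 members passed an adjusted p of 0.05, beside 4 genes (0.0319%) of the table, and the smallest adjusted p of a member was 1.00. At an unadjusted p under 0.05 there were 2 members, Kcna6 and Kcnh5, which is 3.03% of those tested, beside 1.36% of all genes. The groups did not overlap for 4 members (6.06%), beside 4.13% of all genes: Kcna6 was lower, and Kcnh5, Kcnk4 and Kcng4 were higher, in every Tet1-deficient library. Each of these shares rests on 4 members or fewer. Means were higher without Tet1 for 32 members and lower for 34, the median log2 difference was −0.01 (all genes: 0.01), and 60 of 66 differences lay within 0.2 of 0 on the log2 scale. The pooled SD within genotypes had a median of 0.184 in log2 units, beside 0.16 over all genes, so most differences were smaller than the spread between replicates.

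**Figure D2:**
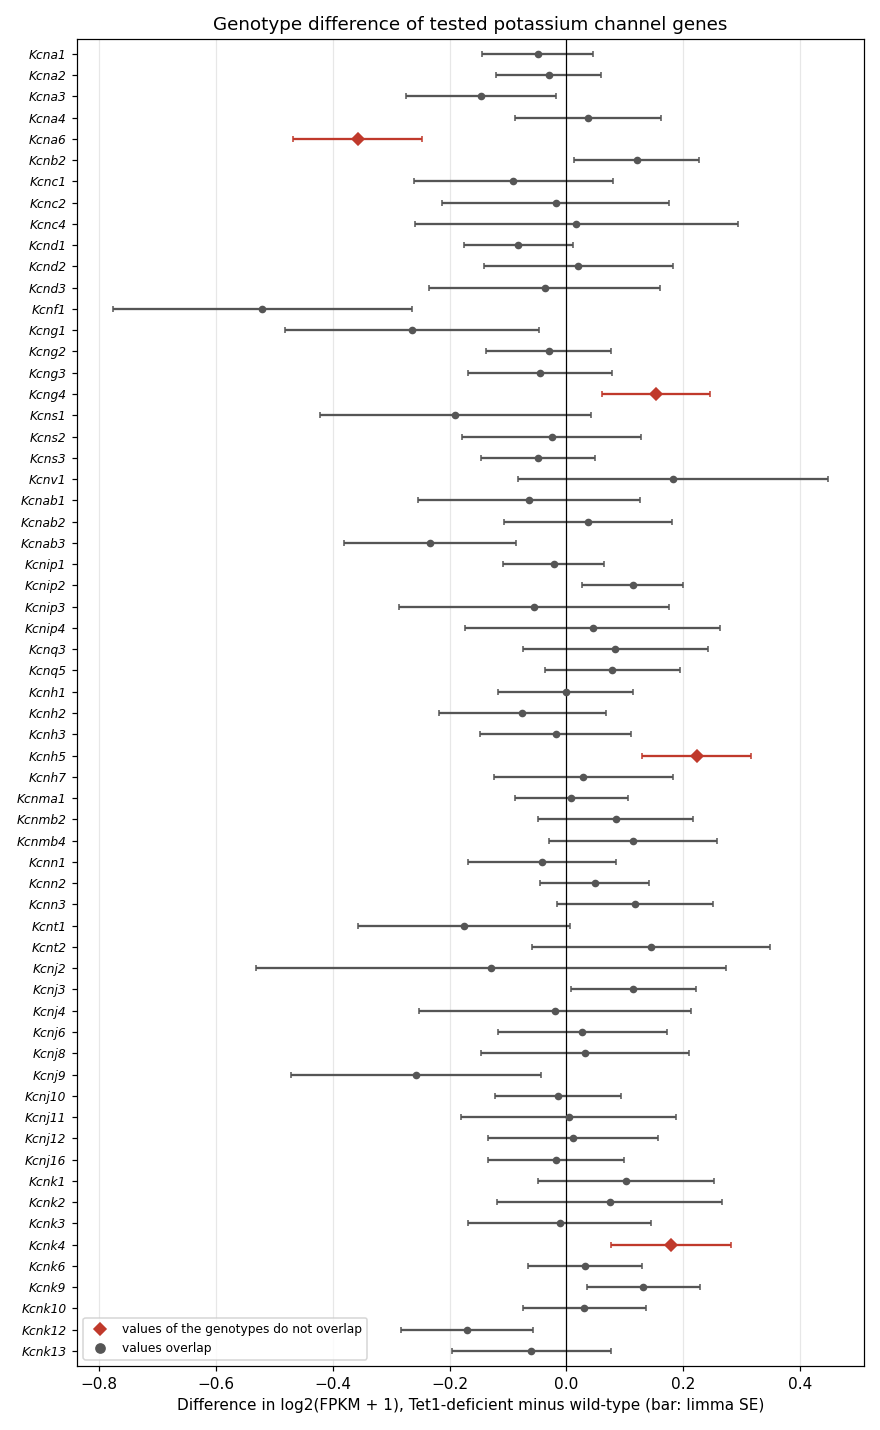
Difference in log2(FPKM + 1), Tet1-deficient minus wild-type, for 62 of the 66 tested members, with bars of 1 limma standard error; diamonds mark the 4 members whose genotypes do not overlap. Kcna6 and Kcnf1 lie farthest below 0 and Kcnh5 farthest above it, and no member passed the adjusted threshold.

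The delayed rectifiers of the Kcna subfamily sit along axons, and Kcna6, one of their alpha subunits, gave the smallest p of all members. Kcna6 measured 7.66, 10.05 and 9.28 FPKM in Tet1-deficient libraries, against 11.95, 11.6 and 11.7 FPKM in wild-type libraries. Every Tet1-deficient value lay below every wild-type value, and the SD of the wild-type libraries was 0.201 FPKM. The log2 difference was −0.36 ± 0.111 (SE; limma adjusted p = 1.00). Without each library in turn the difference ranged between −0.43 and −0.26, and over the 4 libraries that lie together it was −0.25 (adjusted p = 0.999). The gene spans chr6:126708329-126740674 on the minus strand (GENCODE, GRCm38), and its exons overlap Gm26673 on the other strand, whose reads cannot be told apart if the counting ignored strand. Summed CA1 markers were 287, 263 and 291 FPKM in Tet1-deficient and 294, 326 and 311 FPKM in wild-type replicates 1 to 3. The gap between 291 and 294 FPKM depends on Dcn, which is also a meningeal fibroblast marker. All 12 endothelial and all 10 tested meningeal fibroblast markers also had lower means without Tet1. The part of any of these cell types in the Kcna6 and Kcnf1 differences was not tested.

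The other axonal Kcna genes showed no such separation. Kcna1, the leading member of the subfamily, averaged 49.0 ± 2.53 FPKM in Tet1-deficient and 50.8 ± 3.78 FPKM in wild-type libraries (SD, n = 3 each, as for every mean below). Kcna2, its partner in axonal heteromers, averaged 14.97 ± 1.01 FPKM in Tet1-deficient and 15.3 ± 0.574 FPKM in wild-type libraries. Kcna4, which gives a rapidly inactivating current, averaged 14.6 ± 1.17 FPKM in Tet1-deficient and 14.3 ± 2.06 FPKM in wild-type libraries. All 3 overlapped between genotypes, as did Kcna3. Kcna5, Kcna7 and Kcna10 were under the filter.

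Among the somatodendritic and fast-spiking channels the genotypes also overlapped. Kcnb2, a delayed rectifier of the soma and dendrites, averaged 2.099 ± 0.193 FPKM in Tet1-deficient and 1.86 ± 0.257 FPKM in wild-type libraries. The Kcnc genes encode high-threshold channels that let neurons fire fast. Kcnc1 averaged 35.3 ± 5.79 FPKM in Tet1-deficient and 37.7 ± 6.36 FPKM in wild-type libraries, and Kcnc2 averaged 22.97 ± 5.31 FPKM in Tet1-deficient and 23.2 ± 4.69 FPKM in wild-type libraries. Their SDs came from replicate 1 of each genotype, whose values are given with the libraries below. The 3 Kcnd genes, which carry the dendritic A-type current, had log2 differences between −0.08 (Kcnd1) and 0.02 (Kcnd2). Kcnd2 averaged 32.4 ± 7.07 FPKM in Tet1-deficient and 31.6 ± 2.95 FPKM in wild-type libraries, and Kcnd3 averaged 21.6 ± 6.09 FPKM in Tet1-deficient and 21.7 ± 1.83 FPKM in wild-type libraries.

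The Kcnf, Kcng, Kcns and Kcnv genes encode modifier subunits that form no channel alone and join Kcnb subunits, and Kcnf1 had the log2 difference of largest size among the tested members. It measured 9.78, 12.8 and 19.2 FPKM in Tet1-deficient libraries, against 15.3, 20.5 and 24.2 FPKM in wild-type libraries. The groups overlap, because the highest Tet1-deficient library lay above the lowest wild-type library. The log2 difference was −0.52 ± 0.256 (SE; limma adjusted p = 1.00). Without Tet1-deficient replicate 1 it was −0.31, without Tet1-deficient replicate 3 it was −0.76, and over the 4 libraries that lie together it was −0.48. The spread within each genotype was thus of the same order as the difference.

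Kcng4 is a modifier subunit with little spread. It measured 2.78, 3.03 and 2.76 FPKM in Tet1-deficient libraries, against 2.22, 2.60 and 2.59 FPKM in wild-type libraries. Every Tet1-deficient value lay above every wild-type value, with a log2 difference of 0.15 (SE 0.0924, limma adjusted p = 1.00) that was 0.10 without wild-type replicate 1 and 0.12 over the 4 libraries that lie together. Its paralog Kcng1 measured 5.10, 8.87 and 8.37 FPKM in Tet1-deficient libraries and 7.49, 8.49 and 11.1 FPKM in wild-type libraries, with overlap. The log2 difference of Kcng1 was −0.26, with −0.04 without Tet1-deficient replicate 1 and −0.12 without wild-type replicate 3. The 3 Kcns genes had lower means without Tet1 (log2 differences −0.19 for Kcns1 to −0.03 for Kcns2), all overlapping. Kcns2, the leading one, averaged 7.93 ± 1.68 FPKM in Tet1-deficient and 8.02 ± 0.960 FPKM in wild-type libraries. Kcnv1 measured 26.0, 15.2 and 13.9 FPKM in Tet1-deficient libraries and 20.6, 13.7 and 13.02 FPKM in wild-type libraries. Replicate 1 was the highest in both genotypes, the log2 difference was 0.18, and it ranged between −0.08 (without Tet1-deficient replicate 1) and 0.38 (without wild-type replicate 1) without each library in turn. Kcnv1 had the third largest pooled SD of the tested members.

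Cytoplasmic auxiliary subunits were abundant and overlapped between genotypes. Kcnab2 measured 228, 236 and 240 FPKM in Tet1-deficient libraries, against 186, 272 and 237 FPKM in wild-type libraries. The wild-type libraries thus held both the lowest and the highest value. Kcnab1, another beta subunit, averaged 51.7 ± 13.3 FPKM in Tet1-deficient and 53.2 ± 6.95 FPKM in wild-type libraries. Kcnab3 measured 8.55, 9.55 and 10.4 FPKM in Tet1-deficient libraries and 9.06, 12.6 and 12.6 FPKM in wild-type libraries, with overlap at the lowest wild-type value. Its log2 difference was −0.23 (limma adjusted p = 1.00), and its exons overlap Kcnab3os on the other strand. Without wild-type replicate 1 it was −0.38. Over the 4 libraries that lie together it was −0.31, with an adjusted p of 0.809, the smallest of any member in that fit.

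The Kcnip genes encode calcium-binding partners of Kcnd channels. Kcnip2, the most abundant, measured 70.0, 77.4 and 76.0 FPKM in Tet1-deficient libraries, against 70.8, 69.5 and 65.9 FPKM in wild-type libraries. Only the lowest Tet1-deficient value fell inside the wild-type range, and the log2 difference was 0.11 (limma adjusted p = 1.00). Over the 4 libraries that lie together this difference was 0.18. Kcnip3, which also acts as a transcriptional repressor, averaged 26.5 ± 7.21 FPKM in Tet1-deficient and 27.5 ± 6.77 FPKM in wild-type libraries. Kcnip4 averaged 24.3 ± 6.59 FPKM in Tet1-deficient and 23.4 ± 5.05 FPKM in wild-type libraries, and Kcnip1 averaged 7.48 ± 0.106 FPKM in Tet1-deficient and 7.62 ± 0.523 FPKM in wild-type libraries. Kcnip1 had the smallest pooled SD of the 66 tested members.

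The Kcnq genes carry the M-current, a slow potassium current that brakes repetitive firing. Kcnq3, a subunit of the neuronal M-channel, averaged 20.8 ± 1.07 FPKM in Tet1-deficient and 19.8 ± 4.14 FPKM in wild-type libraries. Kcnq5 averaged 18.2 ± 1.06 FPKM in Tet1-deficient and 17.2 ± 2.29 FPKM in wild-type libraries. Both genes differed by less than their replicate spread. Kcnq1, the cardiac and epithelial member, was under the filter.

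Of the ether-à-go-go related Kcnh genes, Kcnh5 was one of the 2 members with an unadjusted p under 0.05. Kcnh5 measured 2.91, 2.52 and 2.44 FPKM in Tet1-deficient libraries, against 2.15, 2.18 and 1.97 FPKM in wild-type libraries. All Tet1-deficient libraries lay above all wild-type libraries. The log2 difference was 0.22 ± 0.0936 (SE; limma adjusted p = 1.00), and it ranged between 0.17 and 0.26 without each library in turn. The gene spans chr12:74897220-75177332 on the minus strand (GENCODE, GRCm38) and no other annotated exon overlaps it. Kcnh3, the leading member of the subfamily, averaged 19.7 ± 2.34 FPKM in Tet1-deficient and 19.96 ± 2.34 FPKM in wild-type libraries. Kcnh1, the closest paralog of Kcnh5, averaged 11.1 ± 0.659 FPKM in Tet1-deficient and 11.1 ± 1.54 FPKM in wild-type libraries. Kcnh7 averaged 3.49 ± 0.759 FPKM in Tet1-deficient and 3.37 ± 0.469 FPKM in wild-type libraries. Kcnh4, Kcnh6 and Kcnh8 were under the filter.

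Channels gated by calcium or sodium inside the cell overlapped between genotypes. Kcnma1, the large-conductance calcium-activated channel, averaged 25.7 ± 2.04 FPKM in Tet1-deficient and 25.5 ± 1.43 FPKM in wild-type libraries. Kcnmb4, its neuronal beta subunit, averaged 29.5 ± 1.91 FPKM in Tet1-deficient and 27.4 ± 4.90 FPKM in wild-type libraries. The transcripts of the large-conductance channel and its neuronal subunit thus had like mean levels in FPKM. In replicate 1 of both genotypes Kcnma1 lay above the other 4 libraries and Kcnmb4 below them. Kcnn2, the main small-conductance calcium-activated channel here, averaged 36.3 ± 1.93 FPKM in Tet1-deficient and 35.1 ± 2.39 FPKM in wild-type libraries. Kcnn1 averaged 3.55 ± 0.598 FPKM in Tet1-deficient and 3.67 ± 0.397 FPKM in wild-type libraries, and Kcnn3 averaged 2.98 ± 0.157 FPKM in Tet1-deficient and 2.70 ± 0.637 FPKM in wild-type libraries. All of these overlapped. The sodium-activated channel Kcnt1 averaged 7.99 ± 1.42 FPKM in Tet1-deficient and 9.20 ± 1.92 FPKM in wild-type libraries, and its paralog Kcnt2 averaged 9.03 ± 2.32 FPKM in Tet1-deficient and 8.05 ± 1.89 FPKM in wild-type libraries. Kcnu1, known from sperm, was listed at 0.417 to 0.613 FPKM over the 6 libraries and was not tested.

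The inward rectifiers include the largest subfamily measured here, with 15 Kcnj genes of which 10 were tested. Of these 10, 5 had higher and 5 lower means without Tet1, with log2 differences between −0.26 (Kcnj9) and 0.11 (Kcnj3). The G-protein-gated members, which hyperpolarise neurons in answer to transmitters such as GABA, were Kcnj3, Kcnj6 and Kcnj9. Kcnj3 averaged 67.0 ± 4.69 FPKM in Tet1-deficient and 62.0 ± 6.02 FPKM in wild-type libraries, and Kcnj6 averaged 27.6 ± 2.095 FPKM in Tet1-deficient and 27.3 ± 4.77 FPKM in wild-type libraries. Kcnj9 measured 15.03, 22.7 and 26.0 FPKM in Tet1-deficient libraries and 21.3, 24.4 and 29.8 FPKM in wild-type libraries. These overlap, and the difference of −0.26 was −0.04 without Tet1-deficient replicate 1, −0.41 without Tet1-deficient replicate 3 and −0.13 without wild-type replicate 3. The cardiac partner Kcnj5 was under the filter.

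Kcnj2, a strong inward rectifier, had the largest pooled SD of all tested members. It measured 11.3, 8.17 and 6.60 FPKM in Tet1-deficient libraries, against 19.1, 6.41 and 6.53 FPKM in wild-type libraries. Wild-type replicate 1 stood far above the other 5 libraries, and Tet1-deficient replicate 1 was the next highest. The log2 difference was −0.13 with all libraries, 0.35 without wild-type replicate 1, 0.03 without Tet1-deficient replicate 3 and 0.16 over the 4 libraries that lie together, so single libraries decided its sign. Immediate early genes, a list of 17 transcripts induced within minutes of neuronal activity, had their highest mean deviation in replicate 1 of both genotypes. The mean log2 deviation from the 6-library mean was 0.16, −0.35 and 0.06 in Tet1-deficient replicates 1 to 3 and 0.56, −0.14 and −0.29 in wild-type replicates 1 to 3. The summed list was highest in wild-type replicate 1 and then in Tet1-deficient replicate 3, at 1060, 876 and 1200 FPKM in Tet1-deficient and 1267, 1028 and 932 FPKM in wild-type replicates 1 to 3. Single genes of the list were split. Fos, Fosl2, Egr1, Egr2, Egr4, Npas4, Nr4a1, Nr4a2, Nr4a3, Dusp1 and Btg2 were highest in replicate 1 of both genotypes, and Egr3 was lowest there. The remaining genes of the list showed neither pattern. The part of immediate early genes in the Kcnj2 values was not tested. The other strong rectifier of neurons, Kcnj4, averaged 47.7 ± 9.59 FPKM in Tet1-deficient and 48.8 ± 12.5 FPKM in wild-type libraries.

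Inward rectifiers of glia and vessels also overlapped between genotypes. Kcnj10, the main potassium uptake channel of astrocytes, averaged 50.2 ± 5.997 FPKM in Tet1-deficient and 50.4 ± 1.99 FPKM in wild-type libraries. Its heteromeric partner Kcnj16 averaged 6.98 ± 0.871 FPKM in Tet1-deficient and 7.07 ± 0.705 FPKM in wild-type libraries. Both were highest in replicate 1 of both genotypes, where summed astrocyte markers were also highest: 1430, 1306 and 1260 FPKM in Tet1-deficient and 1389, 1217 and 1266 FPKM in wild-type replicates 1 to 3. Single markers were split, so the sum does not speak for the whole list. Slc1a2, Slc1a3, Gja1, Aqp4 and S100b were highest in replicate 1 of both genotypes, and Aldh1l1 and Fgfr3 were lowest there. Aldh1l1 measured 15.9 and 16.1 FPKM in Tet1-deficient and wild-type replicate 1, and 21.5 to 22.9 FPKM in the other libraries. The remaining markers showed neither pattern. All 12 astrocyte markers passed the expression filter, and their part in the Kcnj10 and Kcnj16 values was not tested. The pores of ATP-sensitive channels are Kcnj11, of neurons, and Kcnj8, of pericytes and smooth muscle. Kcnj11 averaged 7.64 ± 1.88 FPKM in Tet1-deficient and 7.55 ± 1.26 FPKM in wild-type libraries. Kcnj8 measured 0.789, 1.82 and 1.15 FPKM in Tet1-deficient and 1.16, 0.968 and 1.39 FPKM in wild-type libraries, with overlap. Of 8 tested mural cell markers 7 had a lower mean without Tet1, and the summed list of 11 measured 45.8, 60.3 and 41.6 FPKM in Tet1-deficient libraries and 72.6, 47.0 and 81.5 FPKM in wild-type libraries. Tet1-deficient replicate 2 and wild-type replicates 1 and 3 were the 3 highest libraries for both Kcnj8 and these markers, in a different order. For Kcnj8, wild-type replicate 1 (1.16 FPKM) was barely above Tet1-deficient replicate 3 (1.15 FPKM), which had the lowest marker sum. The part of mural cells in the Kcnj8 values was not tested.

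**Figure D3:**
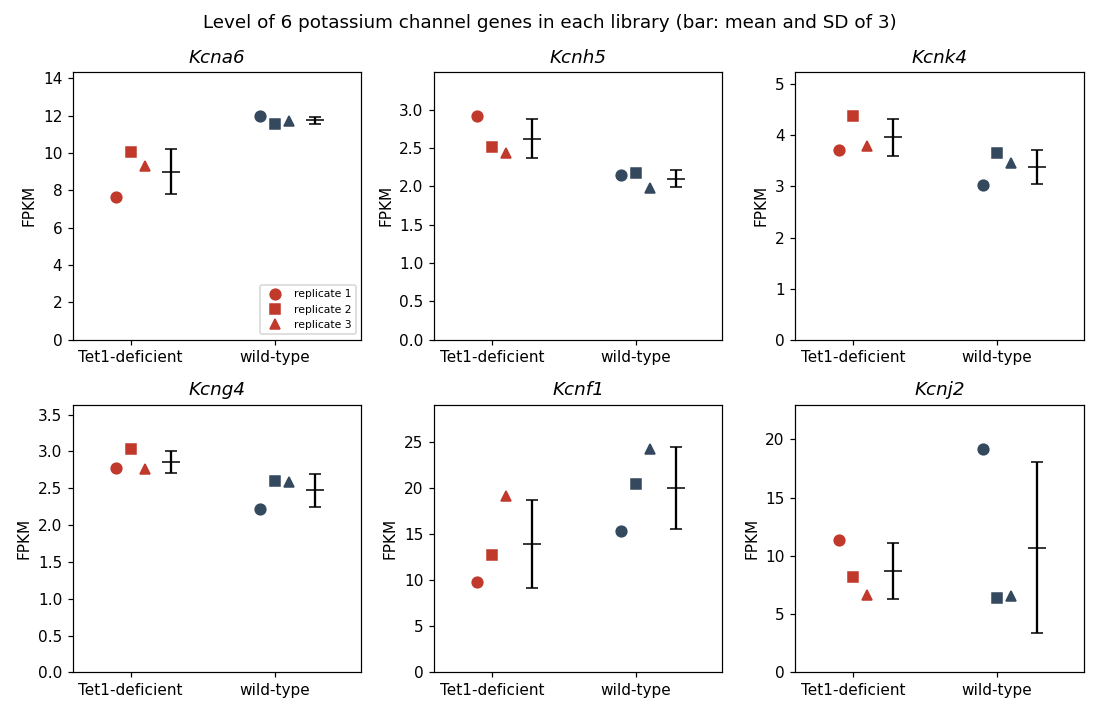
Level in FPKM of the 4 members whose genotypes do not overlap (Kcna6, Kcnh5, Kcnk4 and Kcng4), of Kcnf1, which has the largest difference, and of Kcnj2, which has the largest spread, in each Tet1-deficient (red, left) and wild-type (blue, right) library, with the mean and SD of 3. The separation in Kcna6 comes with closely grouped wild-type values, and wild-type replicate 1 alone lifts the wild-type mean of Kcnj2.

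The Kcnk genes encode tandem-pore leak channels, and 6 of the 9 tested had a higher mean without Tet1. Kcnk4, a mechanosensitive member, measured 3.72, 4.37 and 3.79 FPKM in Tet1-deficient libraries, against 3.02, 3.65 and 3.47 FPKM in wild-type libraries. All Tet1-deficient libraries lay above all wild-type libraries, though by only a small gap between 3.72 and 3.65 FPKM. The log2 difference was 0.18 (SE 0.102, limma adjusted p = 1.00), and it was 0.12 without wild-type replicate 1 and 0.15 over the 4 libraries that lie together. Its exons overlap Catsperz on the same strand, so reads shared by the pair are uncertain. Kcnk9, an acid-sensitive leak channel expressed from the maternal allele in brain, averaged 13.02 ± 0.422 FPKM in Tet1-deficient and 11.8 ± 1.15 FPKM in wild-type libraries, with overlap and a log2 difference of 0.13 (limma adjusted p = 1.00). That difference was 0.07 without wild-type replicate 3, 0.20 without wild-type replicate 1 and 0.23 over the 4 libraries that lie together. Kcnk12 averaged 2.09 ± 0.215 FPKM in Tet1-deficient and 2.49 ± 0.373 FPKM in wild-type libraries, with a log2 difference of −0.17 (limma adjusted p = 1.00) that was −0.09 without wild-type replicate 3. Both genes thus depend on single wild-type libraries for the size of their difference. Kcnk1, the most abundant of the subfamily, averaged 67.5 ± 7.55 FPKM in Tet1-deficient and 63.2 ± 10.7 FPKM in wild-type libraries. Kcnk2, which is sensitive to stretch and lipids, averaged 11.96 ± 2.12 FPKM in Tet1-deficient and 11.4 ± 2.80 FPKM in wild-type libraries.

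Among the 26 members under the filter, Kcnj13 and Kcne2 had the largest SD in FPKM over the 6 libraries, and both are known from the epithelium of the choroid plexus. Kcnj13 measured 0.367, 2.20 and 0.113 FPKM in Tet1-deficient and 0.835, 0.103 and 1.89 FPKM in wild-type libraries. Kcne2 measured 0.118, 0.978 and 0.111 FPKM in Tet1-deficient and 0.127, 0.177 and 0.684 FPKM in wild-type libraries. Both were highest in Tet1-deficient replicate 2 and wild-type replicate 3, 1 library of each genotype. Those are also the libraries with the highest sums of 10 choroid plexus markers, which were 25.7, 201 and 12.03 FPKM in Tet1-deficient and 19.3, 10.02 and 307 FPKM in wild-type replicates 1 to 3. Ttr, the transthyretin gene and the main part of that sum, measured 17.7, 187 and 5.85 FPKM in Tet1-deficient and 11.7, 3.44 and 294 FPKM in wild-type libraries. Of the 10 markers 4 passed the filter and none was at 0 in any library. The part of choroid plexus tissue in the Kcnj13 and Kcne2 values was not tested. The exons of Kcnj13 also overlap those of Gigyf2 on the other strand.

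**Figure D4:**
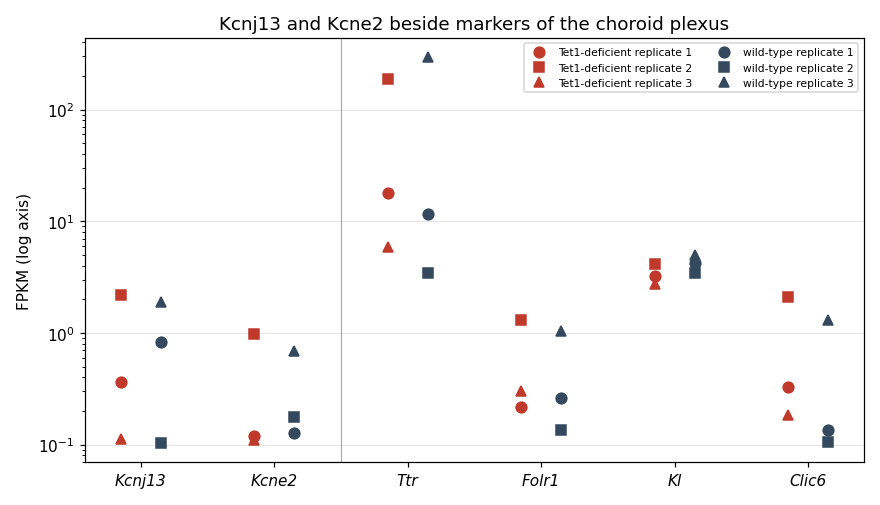
Level in FPKM (log axis) of Kcnj13 and Kcne2 (left of the line) and of the choroid plexus markers Ttr, Folr1, Kl and Clic6 (right of it) in each Tet1-deficient (red) and wild-type (blue) library. Tet1-deficient replicate 2 and wild-type replicate 3 are the highest library of their genotype for all 6 genes.

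Another pattern across the members followed the libraries and not the genotype. In both Tet1-deficient replicate 1 and wild-type replicate 1, 42 of 66 members (63.6%) lay outside the range of the other 4 libraries on the same side, 17 above and 25 below. Over all tested genes the share was 63.5%, so the channels moved as the table did. Members above included Kcnv1, Kcnt2, Kcnip4, Kcnab1, Kcnd2, Kcnc2, Kcnj2, Kcnj10 and Kcnq5. Members below included Kcnc1, Kcnc4, Kcnq3, Kcnab2, Kcnt1, Kcnj4 and Kcnj6. Paralogs of 1 subfamily stood on opposite sides. Kcnc2 measured 29.1, 19.5 and 20.3 FPKM in Tet1-deficient and 28.6, 20.9 and 20.1 FPKM in wild-type libraries, highest in replicate 1 of both. Kcnc1 measured 28.6, 38.8 and 38.5 FPKM in Tet1-deficient and 30.7, 39.4 and 43.0 FPKM in wild-type libraries, lowest in replicate 1 of both. Kcnc4 went the way of Kcnc1, with 22.2, 42.1 and 34.0 FPKM in Tet1-deficient and 22.6, 36.1 and 37.8 FPKM in wild-type libraries. Kcnt2 and Kcnt1 were split likewise.

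These sides went in part with the base composition of the transcripts. The longest annotated transcript had a median GC content of 44.4% in the 17 members above, 56.5% in the 25 below and 53.3% in the 24 within the range. The spans overlapped, at 36.6 to 51.2% for members above and 44.3 to 61.3% for members below. Kcnmb4 (44.3%) and Kcnq3 (44.4%) lay below, whereas Kcnma1 (45.2%) lay above. Across the 66 members, Spearman's rho between GC content and a library's log2 deviation from the 6-library mean was −0.77 in Tet1-deficient replicate 1 and −0.45 in wild-type replicate 1. In the other libraries it was 0.44 and 0.51 in Tet1-deficient replicates 2 and 3, and 0.51 and 0.60 in wild-type replicates 2 and 3. Because each gene is centred on its 6-library mean, shifts in replicate 1 of both genotypes push the other libraries the opposite way. The positive values there are thus no separate observation. These are descriptions across genes that share the same libraries and are not independent replicates. After a smooth trend on GC content and length had been taken out of each library, 29 of 66 members (43.9%) still lay outside, beside 48.5% of the genes with a known transcript, and the cause of the split was not tested. With a term for the split in the model, 9 of 66 members had an unadjusted limma p under 0.05. Among all tested genes there were 848 of 12533 (6.77%), a smaller share. No member was called (smallest limma adjusted p = 0.465, Kcna6). Over the 4 libraries that lie together, a comparison of 2 against 2, 29 of 66 members (43.9%) did not overlap between genotypes, beside 31.3% of all genes. In that comparison 6 of 66 members had an unadjusted limma p under 0.05, beside 484 of 12533 genes (3.86%), a smaller share. None of the members was called.

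**Figure D5:**
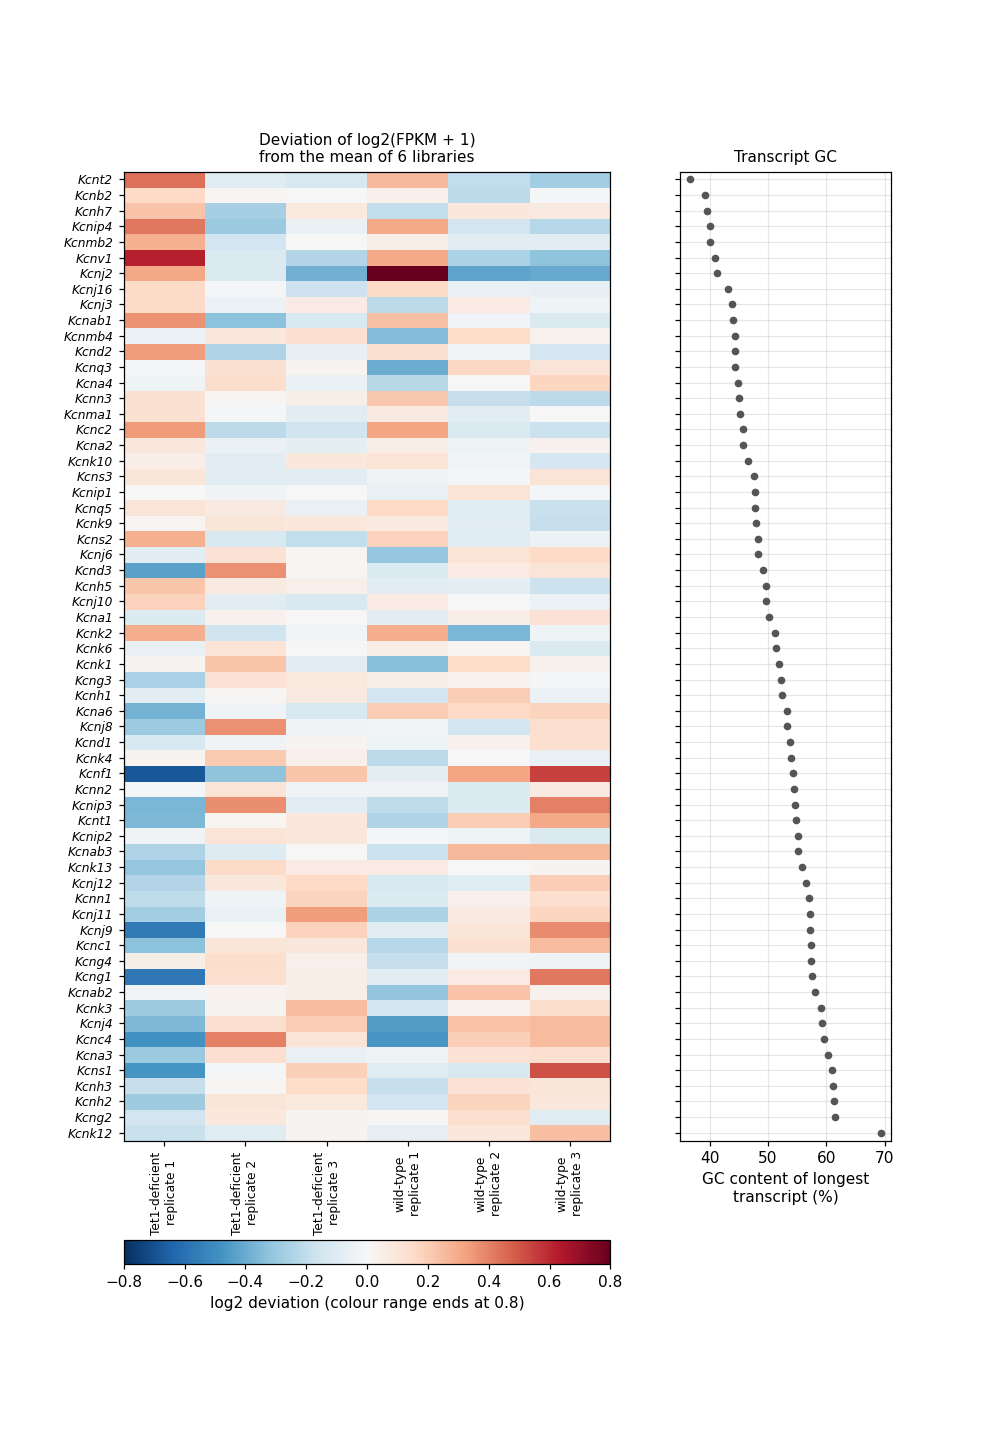
Deviation of log2(FPKM + 1) from the 6-library mean for 62 of the 66 tested members (rows, ordered by transcript GC content from low at the top to high at the bottom) in the Tet1-deficient libraries (left) and wild-type libraries (right), with the GC content of the longest transcript beside it. Replicate 1 of both genotypes is mostly red for members of low GC content and blue for those of high GC content. The other 4 libraries are mostly the reverse, which centring each gene on its 6-library mean favours.

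Genes that work with these channels were examined likewise. A list of 32 partners, chosen with earlier results of these data known, held the Kcnd partners Dpp6 and Dpp10, the sulfonylurea receptors Abcc8 and Abcc9, the axonal organisers Lgi1, Adam22, Cntn2 and Cntnap2, calmodulins, anchoring proteins and the GABA-B receptors with their Kctd subunits. Of the 30 tested, 0 were called by limma, 0 had an unadjusted p under 0.05 (1.36% of all genes) and 0 had genotypes that did not overlap (4.13% of all genes). Their means were higher without Tet1 for 16 and lower for 14, with a median log2 difference of 0.01 and a range of −0.15 to 0.17. Dpp6, the most abundant of the Kcnd partners listed, averaged 97.7 ± 6.45 FPKM in Tet1-deficient and 99.5 ± 2.35 FPKM in wild-type libraries. Abcc8, the neuronal sulfonylurea receptor that pairs with ATP-sensitive pores, averaged 8.01 ± 0.626 FPKM in Tet1-deficient and 7.88 ± 0.376 FPKM in wild-type libraries.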

How the data were processed

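RNA of whole hippocampus was analysed from 6 libraries, 3 per genotype. The values are the authors' FPKM as deposited, made with TopHat2 2.0.9 and Cufflinks 2.1.1 on mm10, per the submitters' processing notes. Not given in the sources used here were the annotation, the strand setting, the treatment of multi-mapped reads and any filter. FPKM cannot enter a count model. Depth is unknown: among 362 genes under 0.03 FPKM in replicate 1 of both genotypes, at most 5 shared a ratio to 3 decimals, so whole reads could not be recovered and no counting intervals are given. No library pair shared more than 1 equal nonzero value.

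Genes averaging at least 1 FPKM were fitted as log2(FPKM + 1) with limma 3.58.1 (R 4.3.3; two-sided moderated test with an intensity trend), with Benjamini-Hochberg adjustment over 12533 genes and a threshold of 0.05. This scale understates differences of low genes. The script was tested on simulated data. Members shown singly were the 12 with the smallest p, the 3 with the largest SD, the top member of each subfamily and a list of channels with known roles. Any other member named was chosen after its values were seen. Some members that the rule takes are not reported here singly. Members, lists and tests were chosen with earlier results of these data known. Alternatives were another pseudocount, no filter, other scalings, no trend, library weights, each library left out and, added after seeing the data, a term for the library split, the 4 libraries that lie together, and removal of spline trends on GC content and length. Gene positions and GC content are from GENCODE M21 (GRCm38), promoters from RefSeq (GRCm38.p6).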

Additional observations from a re-analysis of the deposited data

How the results depend on the processing

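No potassium channel gene passed an adjusted p of 0.05 under any of the 16 alternatives, which included a threshold of 0.1; the smallest adjusted p of a member was 0.0971 (Kcna6, with library weights). The count of genes called over the whole table, 4 in the reported model, was 59 with library weights, 8 with a term for the library split, 12 with the 4 libraries that lie together, and 0 to 6 without each library in turn (0 without Tet1-deficient replicate 2 or wild-type replicate 3). Members whose genotypes do not overlap, 4 in the reported model, numbered 29 with the 4 libraries that lie together (43.9%, beside 31.3% of all genes). Without each library in turn they numbered 4 to 21. There were 21 (31.8% of members, beside 21.6% of all genes) without wild-type replicate 1. Without Tet1-deficient replicate 1 there were 14 (21.2% of members, beside 12.9% of all genes). Of the 15 members with the smallest p or the largest SD, the 12 with the smallest p kept their direction throughout. Those 12 were picked in these data for a difference large beside its spread, which favours a kept direction. The Kcnj2 difference was 0.0234 with library weights, 0.16 with the 4 libraries that lie together and −0.37 to 0.35 without each library in turn. Kcnc4 was −0.00112 after quantile normalization, −0.0548 with library weights and −0.21 to 0.27 without each library in turn, and Kcnv1 was −0.0832 to 0.38 without each library in turn. The cause was not tested. Of the 66 tested members, 22 kept their sign in every alternative. Median-of-ratios scaling moved the median of all genes to 0.02 and the sign of 7 members. No paired analysis was possible because the replicate numbers are names only and tie no library to another. Depth is unknown, so how far it limits low members could not be worked out.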

Other observations

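Summed levels of whole subfamilies, which no comparison above uses, overlapped between genotypes in Kcnj (234 to 247 FPKM in Tet1-deficient and 223 to 256 FPKM in wild-type libraries), Kcnab (287 to 303 FPKM in Tet1-deficient and 256 to 336 FPKM in wild-type libraries) and Kcnk (101 to 114 FPKM in Tet1-deficient and 92.0 to 107 FPKM in wild-type libraries). The Kcnt sum was 17.0 ± 0.931 FPKM in Tet1-deficient and 17.2 ± 0.211 FPKM in wild-type libraries (SD, n = 3 each). Its members lay on opposite sides in replicate 1 of each genotype.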
